A study of Mus musculus with 8 samples.

Results

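Snai1, Snai2, Zeb1, Zeb2, Twist1, Cdh1, Cdh2, Vim, Fn1 and Axl form a set of 10 genes that describe how epithelial or mesenchymal a cell is: 5 transcription factors, 2 cadherins, a filament protein, a matrix protein and a receptor kinase. They were chosen by gene symbol, and all 10 were found among the 34745 genes listed. Their transcripts were measured by RNA-seq in tumours of the mouse melanoma line B16F10, injected under the skin of C57BL/6J mice. There were 4 tumours of mice fed a high cholesterol diet (HCD 1 to HCD 4) and 4 of mice fed a normal diet (ND 1 to ND 4), with no other treatment or allele named for either group. The labels give neither the animals' age nor the time on the diet and do not tie each tumour to its own mouse, so each p-value reflects the scatter among these 8 samples and nothing wider, and that scatter may be technical. Tumour RNA holds transcripts of the injected cells and of host cells, so fewer cells of a type and less RNA per cell cannot be told apart here.

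In carcinomas, the epithelial to mesenchymal transition is a switch in which SNAIL, SLUG, ZEB and TWIST proteins repress E-cadherin (Cdh1) and cells gain N-cadherin (Cdh2), vimentin and fibronectin. Melanocytes come from the neural crest and are not epithelial cells in this sense. In human melanoma, ZEB2 and SLUG belong to the differentiated state, whereas ZEB1 and TWIST1 belong to the dedifferentiated, invasive state, in which the AXL receptor is also high.

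Total counts ran from 16137885 to 17722093 in HCD and from 14599222 to 17637202 in ND libraries. ND 2, ND 3 and ND 4 had counts on 438 to 465 of 1712 olfactory and vomeronasal receptor genes, against 8 to 13 in the HCD libraries and 11 in ND 1. The part of this in the values of the scarce members was not tested.

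The tumours held abundant Vim, Fn1, Cdh2, Axl and Zeb2 transcripts and few of Snai1, Snai2, Zeb1, Twist1 and Cdh1 in both diet groups. Among the transcription factors Zeb2 stood far above the rest, and among the cadherins Cdh2 stood far above Cdh1. None of the 9 members that could be tested passed the test between the diets, with adjusted p from 0.5165 to 0.998 (edgeR quasi-likelihood test, Benjamini-Hochberg adjustment over 13186 genes). The 4 abundant genes Vim, Fn1, Cdh2 and Zeb2 varied by at most 1.47-fold over all 8 tumours. Axl varied by 2.8-fold, mostly through a low value in ND 2.

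Promoter sequence was looked at for the 5 members in the RefSeq table used (GRCm38.p6). Each window runs from 250 bases before the start given in that table to 50 after it. That start can differ from the GENCODE gene start printed with each member below. The Vim window lies inside the GENCODE gene, which runs from 13573927 to 13582826. The 5 are all the members found there, 2 scarce ones (Snai1, Twist1) and 3 abundant ones (Zeb2, Vim, Axl). Capitals mark CACCTG or CAGGTG, the same E-box read on either strand, which SNAIL, SLUG and ZEB proteins bind. For Zeb2, which has 4 windows in the table, the most upstream one is printed.
Snai1, chr2:167537945-167538244, plus strand: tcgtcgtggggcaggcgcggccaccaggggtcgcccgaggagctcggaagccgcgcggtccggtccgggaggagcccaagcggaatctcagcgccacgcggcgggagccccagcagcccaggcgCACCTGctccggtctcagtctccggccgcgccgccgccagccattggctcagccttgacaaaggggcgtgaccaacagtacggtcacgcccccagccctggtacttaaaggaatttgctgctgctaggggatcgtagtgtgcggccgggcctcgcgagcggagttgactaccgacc
Twist1, chr12:33957421-33957720, plus strand: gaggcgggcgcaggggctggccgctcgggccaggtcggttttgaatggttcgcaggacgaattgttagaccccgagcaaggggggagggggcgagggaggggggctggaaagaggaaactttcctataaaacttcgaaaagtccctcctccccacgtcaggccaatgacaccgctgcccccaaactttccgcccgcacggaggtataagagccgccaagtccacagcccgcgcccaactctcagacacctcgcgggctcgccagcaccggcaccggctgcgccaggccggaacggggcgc
Zeb2, chr2:45117393-45117692, minus strand: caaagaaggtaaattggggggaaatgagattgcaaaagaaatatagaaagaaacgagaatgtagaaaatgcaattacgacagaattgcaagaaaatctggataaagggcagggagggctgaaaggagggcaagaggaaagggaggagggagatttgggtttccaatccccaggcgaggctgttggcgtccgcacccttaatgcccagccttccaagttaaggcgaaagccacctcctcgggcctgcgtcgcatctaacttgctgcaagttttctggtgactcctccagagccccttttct
Vim, chr2:13574061-13574360, plus strand: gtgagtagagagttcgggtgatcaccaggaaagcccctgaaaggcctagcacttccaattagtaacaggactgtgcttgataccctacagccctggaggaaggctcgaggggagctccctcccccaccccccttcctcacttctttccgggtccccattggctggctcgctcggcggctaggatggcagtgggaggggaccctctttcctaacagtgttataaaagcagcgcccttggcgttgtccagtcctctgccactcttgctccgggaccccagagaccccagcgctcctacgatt
Axl, chr7:25788684-25788983, minus strand: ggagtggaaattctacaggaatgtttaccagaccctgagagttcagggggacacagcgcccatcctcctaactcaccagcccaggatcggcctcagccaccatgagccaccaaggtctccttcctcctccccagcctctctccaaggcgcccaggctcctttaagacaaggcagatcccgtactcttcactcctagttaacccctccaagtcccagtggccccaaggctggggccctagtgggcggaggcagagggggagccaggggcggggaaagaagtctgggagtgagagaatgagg
The Snai1 window held 1 such E-box, whose first base lies at -126 from the gene start, and the other 4 printed windows held 0, as did all 4 Zeb2 windows. Of all 32851 windows in the table, 20.2% held at least 1. The printed windows also differed in CpG dinucleotides. Snai1 had 34 and Twist1 27, while Zeb2 had 9, Vim 11 and Axl 6, against a median of 7.0 over all windows. Whether CpG content bears on the members' levels was not tested. Snai2, Zeb1, Cdh1, Cdh2 and Fn1 are not in the table.

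Levels were compared between genes as FPKM, deposited values that scale counts by gene length and library total. The mean FPKM over the 8 tumours ran in the order Vim, Fn1, Cdh2, Axl, Zeb2, Snai2, Snai1, Zeb1, Cdh1 and Twist1. Vim averaged 115.5 ± 14.1 FPKM in HCD tumours and 122.5 ± 15.03 FPKM in ND tumours (SD, n = 4 each here and throughout), and Twist1 0.186 ± 0.067 and 0.156 ± 0.149 FPKM. Vim was above Fn1 5.04-fold, Fn1 above Cdh2 2.08-fold, Axl above Zeb2 2.64-fold and Zeb2 above Snai2 3.8-fold. The FPKM ranges of these neighbours over the 8 tumours did not overlap. Cdh2 was above Axl in 8 of 8 tumours with overlapping ranges, and the ranges of the 5 scarce genes overlapped between neighbours in the order.

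The gene length behind each FPKM value, recovered from count and FPKM, was longer than the main transcript for several members. It was 34118 bases for Zeb2, against 9124 for the principal transcript in GENCODE M21, 7809 against 2193 for Vim and 16474 against 5801 for Zeb1. For Snai1 both were 1621 bases. By principal transcript length the 8-tumour means were 10.9 for Zeb2, 424 for Vim and 0.586 for Zeb1 on the FPKM scale, against FPKM means of 2.9, 119 and 0.206. This choice put Zeb1 above Snai1 and kept the other 8 ranks. It brought Axl and Zeb2 closer, with means of 15.4 and 10.9. The Axl range over the 8 tumours, 7.1 to 20.1, then enclosed that of Zeb2, 9.81 to 11.7.

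**Figure D1:**
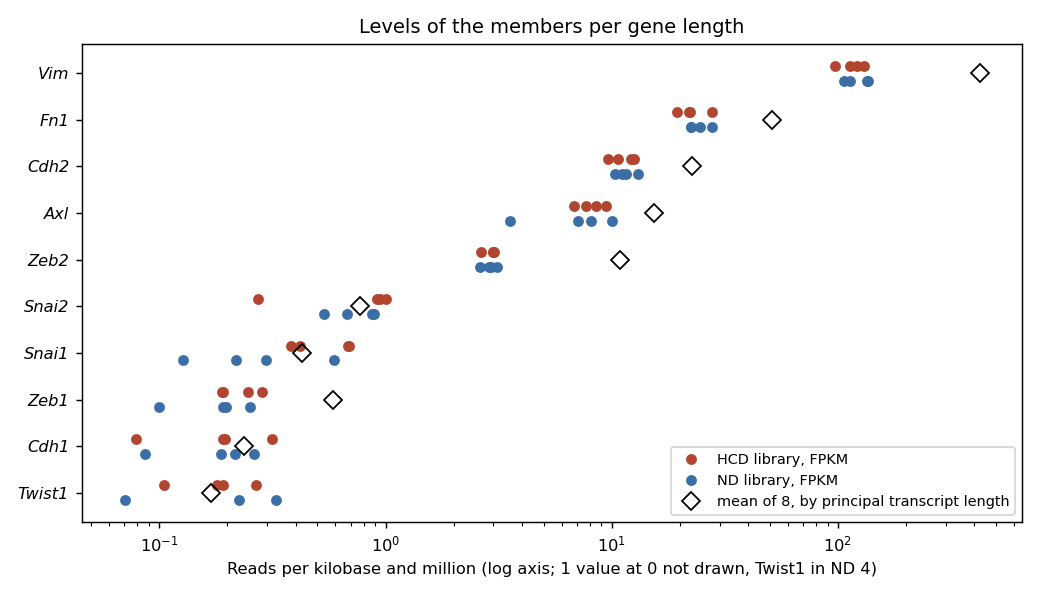
Level of each member per gene length, on a log axis. Filled points are FPKM of single libraries (HCD above ND in each row) and open diamonds are means of the 8 libraries recomputed with the principal transcript length, which lie furthest right of the points for Zeb2 and Vim.

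Values between tumours are given as CPM (counts scaled to a common library total) with TMM normalization, edgeR's scaling between libraries. Snai1 (ENSMUSG00000042821, chromosome 2, 167538195 to 167542814, mm10), a zinc-finger repressor of Cdh1, was at 1.08, 0.606, 1.1 and 0.681 CPM in HCD 1 to HCD 4, against 0.973, 0.362, 0.494 and 0.208 CPM in ND 1 to ND 4. The HCD values were high in 2 tumours, ND 1 lay among the HCD values, and the other 3 ND tumours lay below all of them. These values rest on 10 to 19 counts per HCD library and 3 to 17 per ND library. The log2 fold change was 0.73 (SE 0.466, 95% interval -0.30 to 1.77, adjusted p = 0.5165, edgeR). In ND 4, 3 counts gave a 95% exact binomial interval of 0.0424 to 0.601 CPM, which covers counting error only. Snai1 passed the filter on low counts, about 0.597 CPM in at least 4 libraries, through 4 HCD libraries and 1 ND library. Without ND 1 its log2 fold change was 1.26 (unadjusted p = 0.0224, adjusted p = 0.289), and a fit that set ND 2, ND 3 and ND 4 apart from ND 1 gave -0.17.

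Snai2 (ENSMUSG00000022676, chromosome 16, 14705852 to 14709385), which encodes SLUG, a factor of neural crest and melanocyte development, was at 1.86, 0.545, 2.02 and 1.87 CPM in HCD tumours. In ND tumours it was at 1.83, 1.81, 1.11 and 1.39 CPM. HCD 2 was the lowest of all 8, and the other 3 HCD tumours were the highest of all 8. Its log2 fold change was 0.04 (95% interval -0.82 to 0.89, adjusted p = 0.983, edgeR), and without HCD 2 it was 0.32 (adjusted p = 0.694).

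Zeb1 (ENSMUSG00000024238, chromosome 18, 5591860 to 5775467), a zinc-finger and homeodomain repressor, was at 3.06, 4.0, 4.62 and 3.12 CPM in HCD tumours, against 4.18, 3.2, 3.33 and 1.67 CPM in ND tumours. The groups overlapped, with the lowest value in ND 4. Its log2 fold change was 0.25 (95% interval -0.37 to 0.87, adjusted p = 0.743, edgeR). It was 0.0504 without ND 4, 0.1238 without HCD 3 and 0.4304 without ND 1.

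Zeb2 (ENSMUSG00000026872, chromosome 2, 44983632 to 45117395), the paralogue of Zeb1 that is needed in the melanocyte lineage, was at 87.6, 99.96, 102.2 and 102.5 CPM in HCD tumours. In ND tumours it was at 90.3, 99.93, 102.6 and 108.1 CPM. It was the steadiest member, with a coefficient of variation of 6.87% over the 8 tumours, against 2.47% from counting alone. The estimate, a log2 fold change of -0.03, had a 95% interval of 0.866-fold to 1.11-fold (adjusted p = 0.899, edgeR). Zeb2 FPKM exceeded Zeb1 FPKM by 10.4-fold to 31.3-fold in single tumours, and by 13.7-fold to 41.3-fold with principal transcript lengths. Whether counting used strand is unknown here. Exons of Zeb2 overlap those of Zeb2os on the opposite strand, which was listed at 3.01 to 3.39 CPM in HCD and 2.53 to 3.75 CPM in ND tumours. The opposite-strand partners Gm10125 of Zeb1 and Apol7d of Fn1 reached at most 0.114 and 0.432 CPM.

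Twist1 (ENSMUSG00000035799, chromosome 12, 33957671 to 33959829), a basic helix-loop-helix factor, was the scarcest member, with 20 counts in all HCD and 17 in all ND libraries together. It was at 0.42, 0.303, 0.288 and 0.17 CPM in HCD tumours and 0.114, 0.5425, 0.37 and 0 CPM in ND tumours. The ND values enclosed all the HCD values. The 0 counts in ND 4 allow up to 0.2055 CPM (3 counts), and the 95% exact binomial interval ends at 0.253 CPM. Twist1 did not pass the filter in either group. In the fit without a filter its log2 fold change was 0.18 (adjusted p = 0.938, edgeR).

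**Figure D2:**
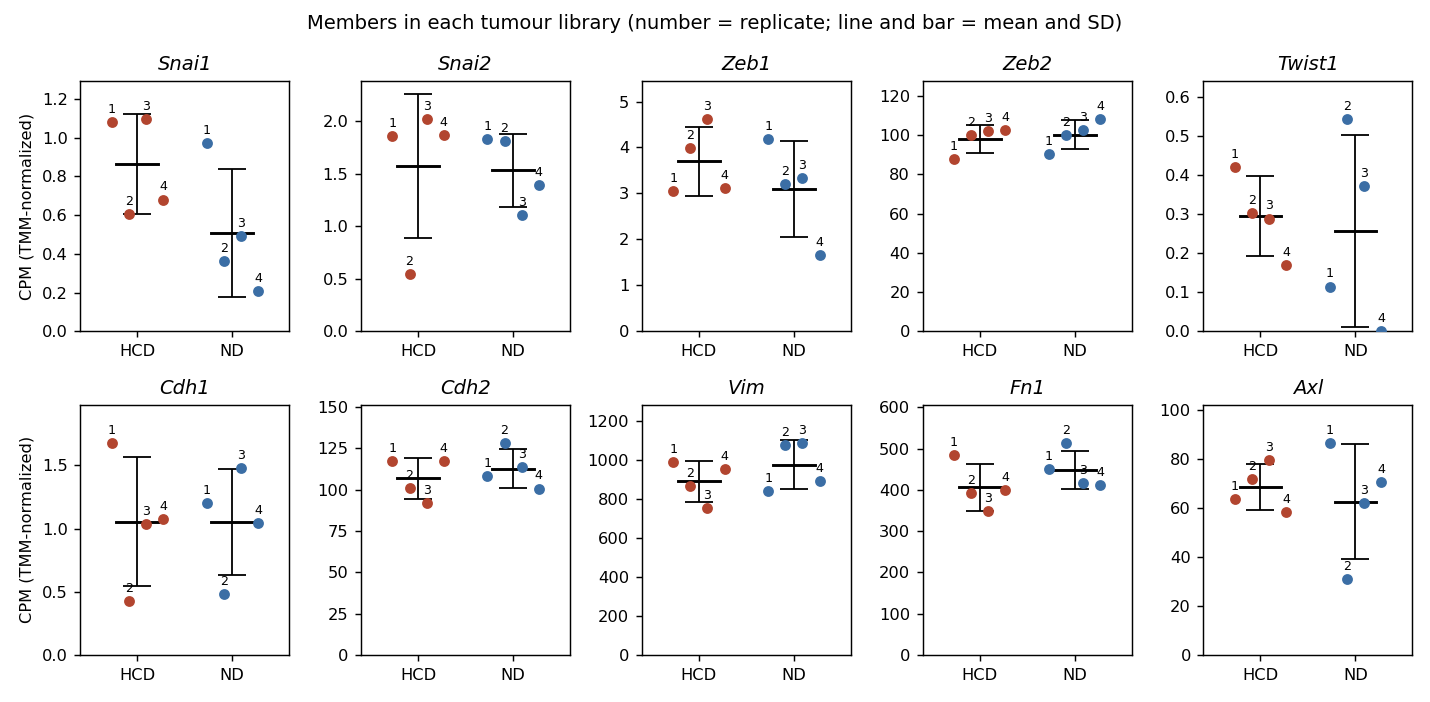
TMM-normalized CPM of the 10 members in each tumour, HCD left and ND right, with the mean and SD of 4 libraries; numbers are the labelled replicates. The groups overlap in every panel, and the lowest points are HCD 2 for Snai2, HCD 1 for Zeb2 and ND 2 for Axl.

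Cdh1 (ENSMUSG00000000303, chromosome 8, 106603351 to 106670246), E-cadherin, which joins melanocytes to keratinocytes in skin, was at 1.68, 0.424, 1.04 and 1.08 CPM in HCD tumours. In ND tumours it was at 1.2, 0.482, 1.48 and 1.04 CPM. These values rest on 7 to 28 counts per HCD library and 8 to 24 per ND library, and each group had its lowest value in replicate 2. The means were 1.06 ± 0.513 CPM in HCD and 1.05 ± 0.421 CPM in ND tumours. The log2 fold change was 0.01, and its 95% interval, 0.502-fold to 2.01-fold, leaves changes up to about that size undetected (adjusted p = 0.998, edgeR).

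Cdh2 (ENSMUSG00000024304, chromosome 18, 16588877 to 16809246), N-cadherin, the cadherin of mesenchymal and neural cells, was at 117, 101, 92.1 and 117 CPM in HCD tumours. In ND tumours it was at 109, 128, 114 and 101 CPM. The extremes were HCD 3 at the low end and ND 2 at the high end, 1.39-fold apart. Between diets the log2 fold change was -0.08, with a 95% interval of 0.81-fold to 1.11-fold (adjusted p = 0.784, edgeR). Without ND 2 it was -0.01, and without HCD 3 -0.0155.

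Cdh2 FPKM exceeded Cdh1 FPKM in every tumour, by 39.8-fold to 152-fold, with a median log2 ratio of 5.74. The log2 ratio was 5.32, 7.09, 5.66 and 5.96 in HCD 1 to HCD 4 and 5.69, 7.25, 5.45 and 5.79 in ND 1 to ND 4. Its means were 6.0 ± 0.767 in HCD and 6.04 ± 0.814 in ND tumours. The highest ratio of each group was that of replicate 2, where Cdh1 was lowest. With principal transcript lengths the excess was 63.8-fold to 243-fold.

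Of 8 other cadherin genes, Cdh19 and Cdh5 came closest to Cdh2. Cdh19, a cadherin of neural crest and glial cells, was at 10.6 ± 1.72 FPKM in HCD and 10.3 ± 1.13 FPKM in ND tumours, and Cdh5, the endothelial cadherin, at 6.9 ± 0.532 and 5.5 ± 0.759 FPKM. With principal transcript lengths the 8-tumour means were 22.65 for Cdh2, 11.8 for Cdh19 and 6.19 for Cdh5 on the FPKM scale. Cdh19 was picked out for its level after its values were seen. Cdh3, P-cadherin, was at most 0.1248 FPKM in HCD and 0.0149 FPKM in ND tumours. Of the 8, 5 were tested, 4 with a log2 fold change above 0, and 0 passed. Cdh5 and Cdh11, a fibroblast cadherin, had unadjusted p of 0.0348 and 0.0414 (log2 fold changes 0.28 and 0.90, adjusted p = 0.299 and 0.317, edgeR). Cdh5 was at 28.7, 24.9, 25.7 and 29.2 CPM in HCD tumours and 24.0, 21.1, 25.6 and 18.5 CPM in ND tumours, with ND 3 within the HCD range. The summed CPM of 8 endothelial markers, Cdh5 included, was 95.6 to 105.9 in HCD and 74.0 to 94.2 in ND tumours, and its part in the Cdh5 values was not tested. Of 5 catenins, which tie cadherins to actin, 4 were tested and 0 passed. Ctnnb1, beta-catenin, was at 569 ± 36.7 CPM in HCD and 531 ± 43.5 CPM in ND tumours (log2 fold change 0.10, adjusted p = 0.591, edgeR), and Jup, plakoglobin, at 7.38 ± 0.876 and 6.67 ± 0.765 CPM (adjusted p = 0.722).

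**Figure D3:**
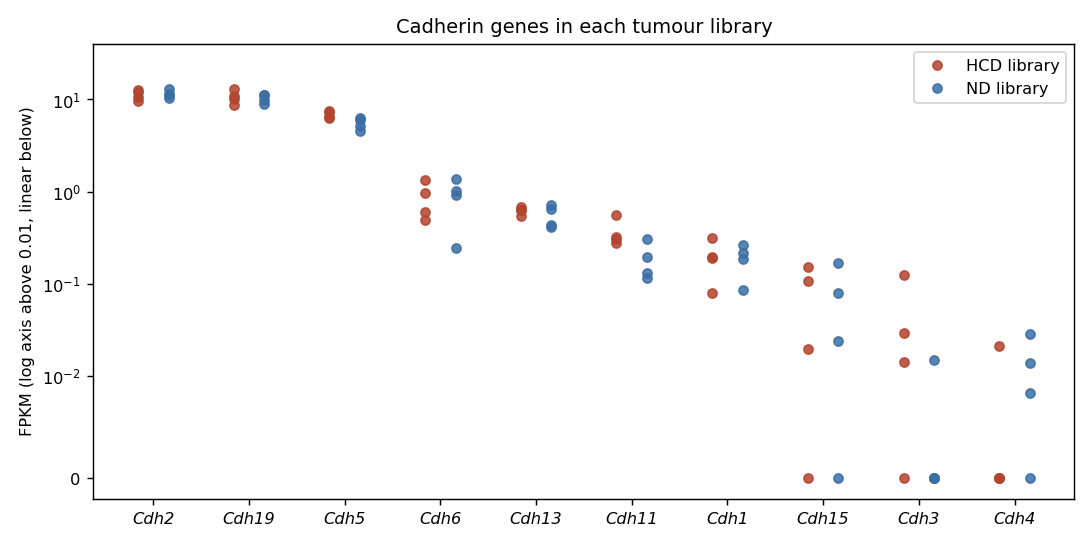
FPKM of 10 cadherin genes in each tumour, HCD left of ND for each gene, on an axis that is logarithmic above 0.01 and linear below it so that values of 0 can be drawn. Cdh2, Cdh19 and Cdh5 lie above 4 FPKM in every tumour, and Cdh1 lies at most at 0.315 FPKM.

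Vim (ENSMUSG00000026728, chromosome 2, 13573927 to 13582826), the intermediate filament of mesenchymal cells, was at 987, 864, 752 and 953 CPM in HCD tumours. In ND tumours it was at 840, 1074, 1086 and 892 CPM. ND 2 and ND 3 lay above all HCD tumours and HCD 3 below all ND tumours, while the others interleaved. The log2 fold change was -0.13 (95% interval -0.37 to 0.11, adjusted p = 0.639, edgeR), and the fit that set ND 2, ND 3 and ND 4 apart gave 0.08. Without HCD 3 it was -0.0614, without ND 3 -0.0735 and without ND 2 -0.0796. Of 6 other filament and linker genes all were tested, 1 was above 0 and 0 passed, with a median log2 fold change of -0.17. Des, the filament of muscle cells, was at 7.41 ± 2.68 CPM in HCD and 12.1 ± 5.19 CPM in ND tumours, and Dst, a linker of filaments to adhesion sites, at 356 ± 47.8 and 431 ± 83.4 CPM (adjusted p = 0.382 and 0.398, edgeR). Skeletal muscle markers summed to 0.485 to 3.63 CPM in HCD and 1.39 to 68.7 CPM in ND tumours, and their part in the Des values was not tested.

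Fn1 (ENSMUSG00000026193, chromosome 1, 71585520 to 71653200), the matrix protein fibronectin, was at 485, 392, 349 and 399 CPM in HCD tumours and 450, 514, 417 and 413 CPM in ND tumours. Of the HCD tumours 3 lay below all ND tumours, and HCD 1 lay among the highest. HCD over ND, the log2 fold change was -0.14 (95% interval 0.769-fold to 1.07-fold, adjusted p = 0.595, edgeR). Without HCD 1 it was -0.24 (unadjusted p = 0.0306, adjusted p = 0.352), whereas without ND 2 it was -0.0698 and without HCD 3 -0.0785. Fibroblast markers, which include the collagens Col1a1, Col1a2 and Col3a1, summed to 70.7 to 296 CPM in HCD and 54.1 to 286 CPM in ND tumours. That is a 5.48-fold range over the 8 tumours, against 1.47-fold for Fn1. The part of fibroblasts in the Fn1 values was not tested. Of 6 integrin genes of fibronectin receptors all were tested, 5 had a log2 fold change above 0 and 0 passed. Itgav was at 102, 91.4, 38.5 and 98.2 CPM in HCD tumours and 50.5, 91.3, 34.6 and 45.9 CPM in ND tumours (log2 fold change 0.57, adjusted p = 0.481, edgeR), so its HCD and ND values interleaved. Itga8 was at 1.61 ± 0.319 CPM in HCD and 1.21 ± 0.198 CPM in ND tumours (adjusted p = 0.525, edgeR). Itga5 and Itgb1, the classical fibronectin receptor, had log2 fold changes of 0.17 and 0.08 (adjusted p = 0.566 and 0.732).

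Axl (ENSMUSG00000002602, chromosome 7, 25757273 to 25788705), a receptor tyrosine kinase of the TAM family, was at 63.8, 71.7, 79.7 and 58.5 CPM in HCD tumours. In ND tumours it was at 86.5, 30.9, 62.1 and 70.4 CPM. ND 1 was the highest and ND 2 by far the lowest, so the ND tumours enclosed the HCD tumours on both sides. The means were 68.4 ± 9.26 CPM in HCD and 62.5 ± 23.4 CPM in ND tumours (log2 fold change 0.13, 95% interval -0.43 to 0.69, adjusted p = 0.859, edgeR). Without ND 2 the log2 fold change was -0.09, and with ND 2, ND 3 and ND 4 set apart it was -0.34 (adjusted p = 0.797 and 0.753).

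ND 2 was also the tumour with the lowest summed macrophage markers. All 10 were detected in each tumour, and they summed to 487 to 638 CPM in HCD and 318 to 541 CPM in ND tumours. Adgre1, Csf1r, C1qa, C1qb, C1qc, Fcgr1 and Lyz2 were each lowest in ND 2. Cd68 was highest of all 8 tumours there, at 169.1 CPM, while Cd14 was lowest in HCD 3 and Mrc1 in ND 3. Within the ND group Axl and the macrophage sum fell in the same order, ND 1, ND 4, ND 3 and ND 2. Within HCD they did not, since HCD 4 had the lowest Axl and the second highest macrophage sum. The part of macrophages in the Axl values was not tested. Itgb3, an integrin subunit, shared with Axl the order of its 4 highest tumours (ND 1, HCD 3, HCD 2, ND 4) and its lowest (ND 2), a gene singled out after its values were seen.

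The other TAM receptors and the ligands of the family were all tested, 3 of 4 with a log2 fold change above 0 and 0 passing. Tyro3 was at 25.5, 26.2, 26.5 and 27 CPM in HCD tumours and 23.6, 24.8, 24.6 and 21.4 CPM in ND tumours (log2 fold change 0.16, adjusted p = 0.417, edgeR). Its groups did not overlap, as was so for 9.67% of all genes tested. Gas6, the main AXL ligand, was at 7.38, 5.94, 8.02 and 4.37 CPM in HCD tumours and 6.12, 4.94, 1.85 and 1.46 CPM in ND tumours (log2 fold change 0.83, 95% interval -0.10 to 1.75, adjusted p = 0.397, edgeR). Its lowest values were in ND 3 and ND 4, which also had the lowest fibroblast sums, and the part of fibroblasts in them was not tested. Its exons overlap those of Tmem255b on the opposite strand. Mertk and Pros1, a macrophage receptor of the family and its ligand protein S, had log2 fold changes of -0.05 and 0.14 (adjusted p = 0.935 and 0.571).

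Over the members as a whole, 0 of the 9 tested were called, where 0.182% of all genes tested were, 0.0683% higher and 0.114% lower in HCD. At an unadjusted p under 0.05 there were also 0, against 14.7% of all genes, and 0 had groups that did not overlap, against 9.67%. Of the 9, 5 had a log2 fold change above 0 and 4 below 0, against 51.1% above 0 over all genes, and the members' median was 0.0054, against 0.0049 over all genes. DESeq2 and limma-voom also called 0 members, with 0 at an unadjusted p under 0.05. DESeq2 gave no adjusted p for Snai1 and Cdh1, so these could not be called there. The 95% intervals were narrow for Zeb2, Cdh2, Vim and Fn1, all between 0.769-fold and 1.11-fold. They were wide for Snai1, Snai2, Zeb1 and Cdh1, whose upper ends ran from 1.83-fold to 3.41-fold, and that of Axl was 0.7445-fold to 1.61-fold.

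**Figure D4:**
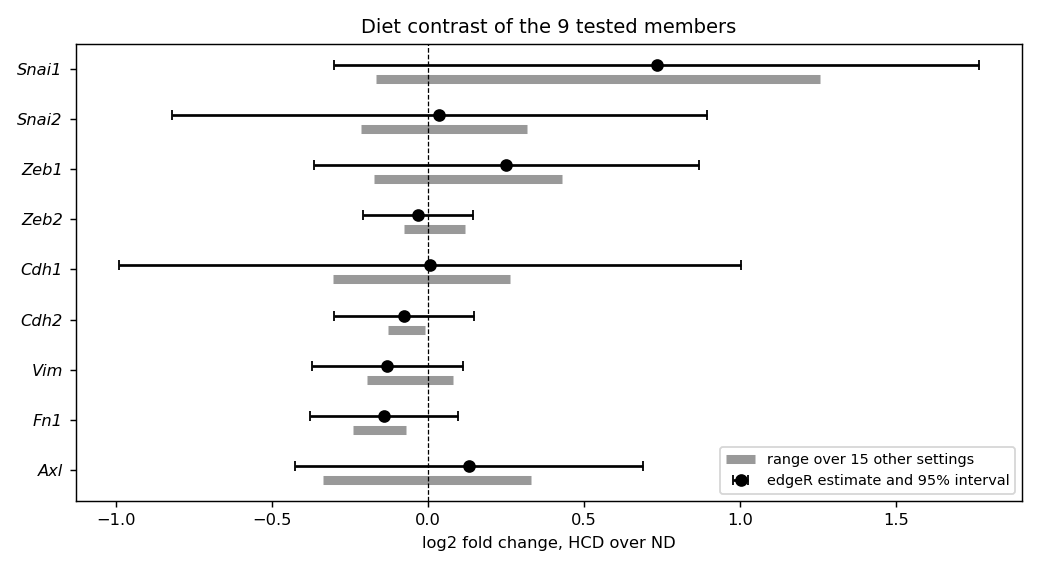
Log2 fold change, HCD over ND, of the 9 tested members. Black points and bars are the edgeR estimate and its 95% interval, and grey bars the range over 15 other settings; every interval crosses 0, and the widest is that of Snai1.

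The abundant members did not follow one order over the tumours. Vim, Fn1 and Cdh2 were lowest of all 8 tumours in HCD 3, where Snai1, Snai2 and Zeb1 were highest and Axl second highest. In ND 2, Fn1, Cdh2 and Twist1 were highest of all 8 tumours and Axl lowest. On the log2 scale Axl in ND 2 lay -1.03 from its mean over the 8 tumours, while Vim, Fn1 and Cdh2 lay 0.22, 0.28 and 0.23 above theirs. HCD 3 had the highest summed macrophage markers and ND 2 the lowest, though Cd14 was lowest in HCD 3 and Cd68 highest in ND 2.

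**Figure D5:**
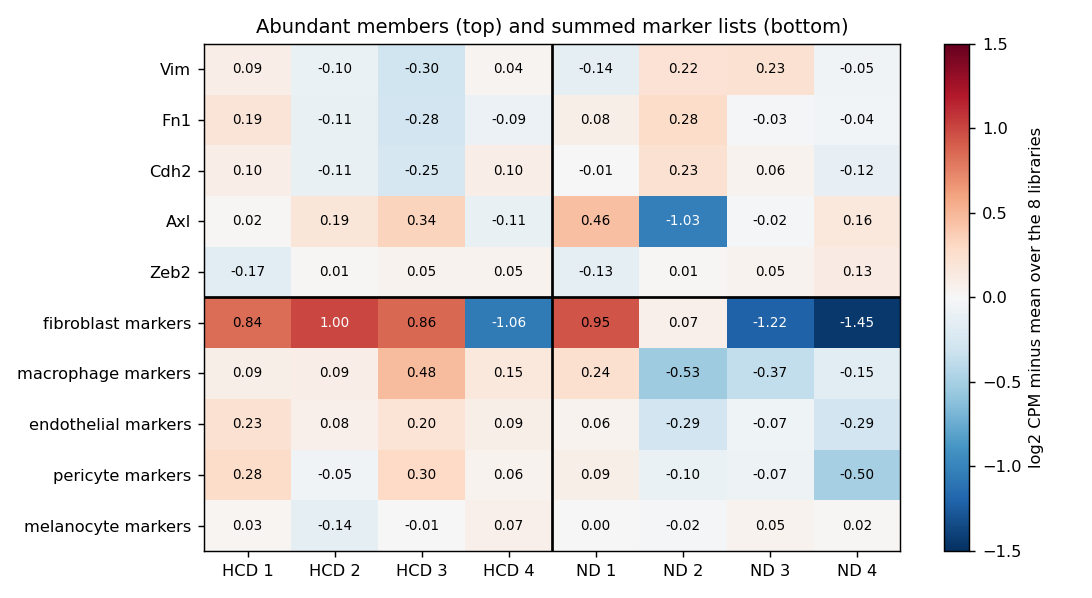
Deviation of log2 CPM from the mean over the 8 tumours for 5 abundant members (top) and for the summed CPM of 5 marker lists (bottom), HCD tumours left of ND tumours. Fibroblast markers range from -1.45 to 1.0, while Vim, Fn1, Cdh2 and Zeb2 stay between -0.30 and 0.28.

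Other genes of the transition gave 0 calls. Of 10 further regulators of the mesenchymal state, 5 were tested, 1 had a log2 fold change above 0 and 0 passed. Foxc1, a forkhead factor, was at 8.76 ± 1.11 CPM in HCD and 10.5 ± 1.38 CPM in ND tumours, and Prrx1, a homeobox factor of mesenchyme, at 3.0 ± 1.14 and 2.54 ± 1.235 CPM (adjusted p = 0.457 and 0.835, edgeR). Tcf4, the E2-2 helix-loop-helix factor, was at 39.2 ± 13 CPM in HCD and 45.1 ± 7.65 CPM in ND tumours (adjusted p = 0.752, edgeR). Of 13 epithelial genes and their regulators, only Tjp1 and Epcam passed the filter, and Ovol1, Ovol2 and Krt18 had 0 counts in all 8 libraries. Tjp1, the tight junction protein ZO-1, was at 98.6 ± 11.5 CPM in HCD and 94.2 ± 6.11 CPM in ND tumours. Epcam, an epithelial adhesion molecule, was at 0.664 ± 0.15 CPM in HCD and 0.666 ± 0.103 CPM in ND tumours. Of 10 TGF-beta pathway genes, which act upstream of SNAIL and ZEB factors in many cells, all were tested, 6 were above 0 and 0 passed. Tgfb3 was at 8.87, 7.88, 8.19 and 8.45 CPM in HCD tumours and 5.89, 6.15, 5.12 and 7.08 CPM in ND tumours, with no overlap (log2 fold change 0.46, unadjusted p = 0.00798, adjusted p = 0.176, edgeR). It was the 1 of the 10 at an unadjusted p under 0.05, which 14.7% of all genes reached. It was also the 1 whose groups did not overlap, as was so for 9.67% of all genes tested. Smad7, an inhibitor of the pathway, was at 5.3 ± 1.56 CPM in HCD and 7.45 ± 1.16 CPM in ND tumours (adjusted p = 0.3675). Tgfb1, a ligand of the pathway, had a log2 fold change of 0.17 (adjusted p = 0.6995, edgeR).

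The tumours carried the melanocyte markers of the labelled line: 7 of 7 were detected in every library and summed to 25880 to 30100 CPM in HCD and 28210 to 29610 CPM in ND tumours. Of these, Mitf, the melanocyte master regulator, was the 1 gene called in any list: it was at 391 to 516 CPM in HCD and 205 to 287 CPM in ND tumours (log2 fold change 0.85, adjusted p = 0.0459, edgeR). That call was lost without ND 4, without HCD 4 and with the replicate numbers as a block, where 0 genes of any kind were called. Whether Mitf was called in the other settings is not reported here. Of 7 keratinocyte markers, Krt5 and Dsg3 had 0 counts in all 8 libraries, and the list summed to 0.839 to 2.79 CPM in HCD and 0.603 to 2.23 CPM in ND tumours. Macrophage, endothelial and fibroblast markers were present in all tumours. The median log2 fold changes of these lists were 0.50, 0.28 and 0.68, and 0 of their genes were called. At an unadjusted p under 0.05, which 14.7% of all genes reached, there were 4 of 10 macrophage and 4 of 8 endothelial markers, all higher in HCD. There were 0 of 8 fibroblast markers, whose estimates were all above 0. Pericyte markers had 2 of 7, higher in HCD, and skeletal muscle markers 3 of 3 tested, lower in HCD. Of the macrophage markers 1 had a log2 fold change below 0 (Cd14, -0.65), as had 1 of the endothelial markers (Cldn5, -0.42). Mrc1, a macrophage mannose receptor, had the smallest p of its list. It was at 14.3 to 24.75 CPM in HCD and 6.79 to 11.6 CPM in ND tumours, with no overlap (log2 fold change 1.17, unadjusted p = 0.000133, adjusted p = 0.05065, edgeR). Groups did not overlap for 1 of 10 macrophage markers, against 9.67% of all genes tested. The part of these host cells in the values of the members was not tested.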

How the data were processed

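RNA-seq of 4 HCD and 4 ND tumours was analysed. Per the labels' protocols, total RNA came from an RNeasy extraction and went into TruSeq paired-end libraries. Tools named in the submitters' processing notes, without role or order, are edgeR, HTSeq, TopHat2 2.0.9 and CASAVA 1.8, and the build is mm10. The annotation release and strandedness were not given in those notes. The authors deposited counts per Ensembl gene without normalization. The deposited FPKM, per the file headers, scale those by gene length and library total, since 1 length per gene recovers them in every library.

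Of 34745 genes 34267 matched a name, and all 132 symbols of 17 lists were found. Coordinates and principal transcripts are from GENCODE M21 (GRCm38). Diets were compared by quasi-likelihood F-test in R 4.3.3 with edgeR 4.0.16 and limma 3.58.1, fitted to the 8 libraries by diet alone, with TMM factors and edgeR's filter (minimum count 10, minimum total 15), with Benjamini-Hochberg adjustment over 13186 genes and calls at 0.05. Each standard error is the size of the log2 fold change divided by the root of its F value. The fit was tested on simulated counts with planted changes. It called 38.8% of those of 1.5-fold, 74.6% of those of 2-fold and 92.4% of those of 4-fold. Alternatives were other scaling factors, no filter, DESeq2 1.42.0, limma-voom, a replicate block, a term for ND 2 to ND 4 and leaving out each library. The members, the lists and the term were chosen with earlier results of these data known. All members were named, with the 2 smallest p of each other list and 14 genes fixed by name, of which only those closest to a member are printed. Of the genes fixed by name, 1 is not reported here.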

Additional observations from a re-analysis of the deposited data

Results flagged for a closer look

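HCD 2 stood apart for Snai2 in the HCD group: it was at 0.545 CPM, while the other 3 HCD tumours were at 1.86 to 2.02 CPM and the ND tumours at 1.11 to 1.83 CPM. Its gap to the nearest HCD tumour was 0.891 of the group's range, above Dixon's critical value of 0.829 for 4 samples. It rests on 9 counts in HCD 2. HCD 1 stood apart for Zeb2: it was at 87.6 CPM, while the other 3 HCD tumours were at 100 to 102 CPM and ND 1 was at 90.3 CPM, a gap of 0.832 of the range. Chance flags about 1 in 20 such groups, and 22 were checked.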

How the results depend on the processing

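No member was called in any of 15 alternative settings, and the smallest adjusted p was 0.289 (Snai1 without ND 1). In DESeq2, Snai1 and Cdh1 had no adjusted p. At an unadjusted p under 0.05 there was 1 member without ND 1 (Snai1) and 1 without HCD 1 (Fn1), and 0 in the other settings. Of 13186 genes 24 were called (9 higher and 15 lower in HCD). DESeq2 called 437 (193 higher), the fit without a filter 93, the term for ND 2 to ND 4 5, and leaving out a library 0 to 12. With the replicate block 0 were called. The labelled numbers did not pair the tumours, with correlations of same-numbered deviations of -0.0676 to 0.107.

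Directions of the members were not stable: only Cdh2 and Fn1 kept theirs in all 15 settings, and 23 of 135 member values turned. With the term for ND 2 to ND 4, which sets ND 1 alone against the HCD tumours and assumes it varies like the others, the log2 fold changes were -0.1667 for Snai1, -0.2144 for Snai2, -0.1752 for Zeb1, 0.1191 for Zeb2, -0.1856 for Cdh1, 0.081 for Vim and -0.3383 for Axl. With the replicate block they were -0.0341 for Snai2 and -0.0223 for Cdh1, with limma-voom -0.0953 and -0.0338, and with upper-quartile factors -0.0016 for Cdh1. Leaving out 1 library gave -0.1083 to 0.3171 for Snai2, -0.0784 to 0.0164 for Zeb2, -0.3066 to 0.2635 for Cdh1 and -0.0938 to 0.3302 for Axl. The causes were not tested.

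The median log2 ratio of Cdh2 to Cdh1 was 5.738 as FPKM and 6.547 as CPM, which leaves out gene length, and 6.418 with principal transcript lengths, chosen after seeing the data. The 20 mean levels moved by less than 1 SD with plain CPM. Depth limits Snai1, Snai2, Cdh1 and Twist1 most.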
